A study of Mus musculus with 11 samples.

Results

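The smooth muscle contractile genes are a set of 33 symbols for the proteins with which a smooth muscle cell contracts, anchors its filaments, stores calcium and receives its excitatory signal. Members were the probe sets that the platform annotation assigned to a single one of these symbols, and where a gene had several, the one with the highest mean log2 level stood for it. This gave 32 genes out of 18193 tested, and the muscarinic receptor gene Chrm2 was not analysed here. They were followed in whole colon of adult C57BL/6 mice on 11 expression arrays, with no engineered allele named in the labels for any group. The control group held 3 arrays of colon taken before imatinib. Imatinib, an inhibitor of the Abl, Kit and PDGF receptor kinases, had been injected 3 h before the second group of 4 arrays and 12 h before the third group of 4 arrays. Dose, vehicle, and the hour at which each animal was killed were not found in the labels, so drug, injection and hour of harvest cannot be told apart. No label says whether the numbered samples of a group were different mice, and the p-values therefore reflect only how these samples vary.

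The wall of the colon holds an inner circular and an outer longitudinal smooth muscle layer, with a thin muscle sheet under the mucosa. Calcium that enters the cell or leaves its stores activates calmodulin and myosin light chain kinase, and phosphorylated myosin then slides on actin filaments that are anchored in dense bodies and dense plaques. Most genes of this apparatus are switched on by serum response factor (SRF) with its coactivator myocardin, through a DNA element called the CArG box. In whole tissue, fewer muscle cells and less RNA per muscle cell cannot be told apart.

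Each array had been brought to a common trimmed mean, and array medians of the signal ran from 16.8 to 23.9. Signals of different probe sets are not on a common scale, so levels were compared only within a gene. The ratio of 3′ to 5′ signal, a measure of RNA integrity, spanned 1.27 to 1.34 for beta-actin in control, 1.27 to 1.38 at 3 h and 1.23 to 1.37 at 12 h. The polyadenylated Dap transcript, one of the array's control RNAs, read 773.3 to 920.2 in control, 814.2 to 1017 at 3 h and 1074 to 2051 at 12 h, with the highest value on 12 h replicate 3. The part of this difference in the results below was not tested. The probe sets of the defining smooth muscle genes Acta2 and Myh11 read above the array median on every array, at 3838 to 6890 and 1417 to 3162.

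The contractile genes were near their control level at 3 h and lower at 12 h on most arrays. None of the 32 passed the test at 3 h. At 12 h 1 gene fell against control, the calcium store gene Casq2, and 5 fell against 3 h, namely Actg2, Des, Flna, Csrp1 and Casq2. No member rose in any comparison. Calls were made at a limma adjusted p under 0.05 on log2(signal + 16), and a log2 change on that scale understates the change of dim genes. Of all genes tested 2.54% were called at 3 h against control, 1.43% higher and 1.1% lower. At 12 h the shares were 1.63% against control, 0.786% higher and 0.846% lower, and 4.07% against 3 h, 1.99% higher and 2.08% lower. The median log2 change of the members was 0.02 at 3 h and −0.47 at 12 h against control, and −0.46 at 12 h against 3 h. Over all genes tested these medians were −0.02, −0.01 and 0.01. Both imatinib groups were compared with the same 3 control arrays. At an unadjusted limma p under 0.05 there were 3 members at 3 h, beside 15% of all genes. At 12 h there were 21 against control, beside 15.8%, and 23 against 3 h, beside 17.8%.

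**Figure D1:**
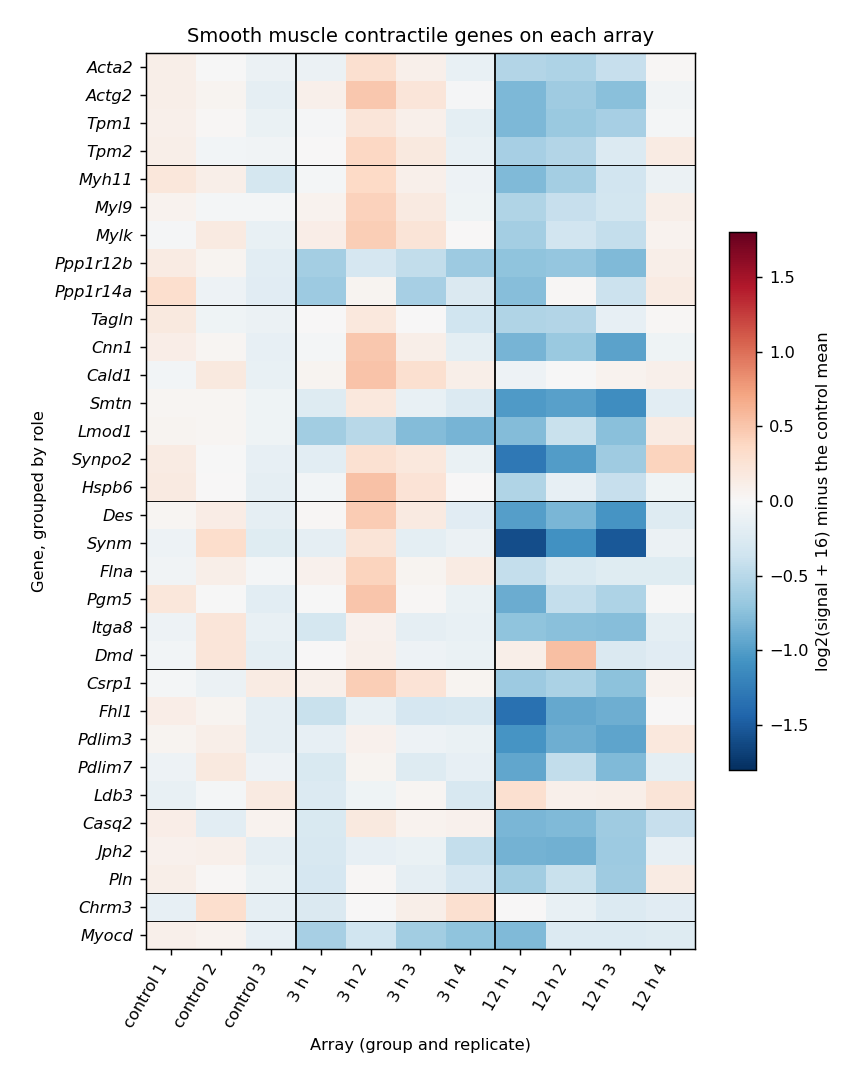
Level of each of the 32 contractile genes on each array, as log2(signal + 16) minus the mean of the 3 control arrays, with genes as rows grouped by role and arrays as columns. Most rows are below the control level on 12 h replicates 1 to 3 and near it on 12 h replicate 4.

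The 4 arrays at 12 h were not alike. Averaged over the 32 members, the mean log2 level was 9.42, 9.42 and 9.24 on the control arrays and 9.20, 9.54, 9.32 and 9.19 on the 3 h arrays. At 12 h it was 8.65, 8.85, 8.79 and 9.34 on replicates 1 to 4, so replicates 1 to 3 lay below every other array and replicate 4 lay among the controls. Of the 32 genes, 26 were below every control array on all 3 of 12 h replicates 1 to 3, and 19 of these were not below every control on replicate 4. Replicate 4 was the highest of the 12 h arrays for 29 genes. Among the 3 h arrays replicate 2 was the highest for 29 genes, and control replicate 3 was the lowest control for 27. Without 12 h replicate 4 the number of members called was 17 at 12 h against control, where 1.38% of all genes were called lower, and 21 at 12 h against 3 h, where 2.24% were called lower. Replicate 4 stood out by the values of these same members, and leaving it out lowers their 12 h mean. The counts without it therefore describe the arrays, and their distance from the shares is no test. Without 12 h replicate 1, 2 or 3, or 3 h replicate 1 or 2, only 1 member was called at 12 h against 3 h. That count was 2 without 3 h replicate 3, 3 without 3 h replicate 4 and 4 without any 1 control array. The single call at 12 h against control was lost without any 1 control array, without 3 h replicate 3 or 4, and without 12 h replicate 1, 2 or 3.

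Upstream sequence is shown for the members that carry a CArG box close to their start and for Des and Casq2, which were among the genes that fell. RefSeq promoter windows (GRCm38.p6, 250 bases before to 50 after an annotated start) were found for 29 of the 33 symbols, 37 windows in all, and not for Actg2, Myh11, Tagln or Myocd. The CArG box, searched on both strands, was present in 5 of these 37 windows, of the 4 genes Myl9, Fhl1, Ldb3 and Dmd, and in 1.63% of all 32851 windows. Capitals mark the box, and the windows of Des and Casq2 have none, which says only that these letters are not in these 300 bases.
Myl9, chr2:156775214-156775513, plus strand: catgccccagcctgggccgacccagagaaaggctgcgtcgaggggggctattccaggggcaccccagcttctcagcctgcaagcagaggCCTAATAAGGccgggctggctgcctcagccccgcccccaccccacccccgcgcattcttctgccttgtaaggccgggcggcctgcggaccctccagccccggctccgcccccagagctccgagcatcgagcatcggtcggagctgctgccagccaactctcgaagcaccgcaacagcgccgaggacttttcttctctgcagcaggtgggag
Fhl1, chrX:56779433-56779732, plus strand: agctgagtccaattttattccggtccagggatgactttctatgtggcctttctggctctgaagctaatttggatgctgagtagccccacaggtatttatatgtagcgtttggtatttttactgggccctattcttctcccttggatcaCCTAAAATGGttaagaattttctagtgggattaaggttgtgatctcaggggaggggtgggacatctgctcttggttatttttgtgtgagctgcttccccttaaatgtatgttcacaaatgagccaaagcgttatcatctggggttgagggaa
Ldb3, chr14:34588632-34588931, minus strand: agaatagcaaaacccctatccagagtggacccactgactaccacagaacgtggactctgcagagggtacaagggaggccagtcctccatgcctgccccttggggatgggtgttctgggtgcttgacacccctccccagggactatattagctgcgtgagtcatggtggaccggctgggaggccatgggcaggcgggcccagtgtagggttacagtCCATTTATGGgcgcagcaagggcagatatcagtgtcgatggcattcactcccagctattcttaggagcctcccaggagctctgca
Dmd, chrX:82948620-82948919, plus strand: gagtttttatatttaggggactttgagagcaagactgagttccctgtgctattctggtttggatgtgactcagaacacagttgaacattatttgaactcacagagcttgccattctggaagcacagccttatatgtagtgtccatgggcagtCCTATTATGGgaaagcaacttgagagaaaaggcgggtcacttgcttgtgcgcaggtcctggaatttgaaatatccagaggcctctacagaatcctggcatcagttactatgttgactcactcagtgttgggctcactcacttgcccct
Des, chr1:75360042-75360341, plus strand: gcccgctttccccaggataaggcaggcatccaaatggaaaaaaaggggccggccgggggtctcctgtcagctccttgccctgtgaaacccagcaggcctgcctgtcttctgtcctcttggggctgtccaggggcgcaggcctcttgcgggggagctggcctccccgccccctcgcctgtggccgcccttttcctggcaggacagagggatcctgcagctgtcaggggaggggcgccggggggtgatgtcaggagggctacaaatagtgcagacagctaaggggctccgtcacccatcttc
Casq2, chr3:102086165-102086464, plus strand: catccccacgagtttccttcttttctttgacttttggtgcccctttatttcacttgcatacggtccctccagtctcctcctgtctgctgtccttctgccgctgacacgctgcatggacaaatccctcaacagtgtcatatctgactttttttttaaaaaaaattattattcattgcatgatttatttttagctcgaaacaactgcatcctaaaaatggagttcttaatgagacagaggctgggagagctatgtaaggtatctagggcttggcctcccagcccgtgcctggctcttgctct
The first base of the box lay 161 bases before the start in Myl9, 102 in Fhl1, 35 in Ldb3 and 98 in Dmd. At 12 h against control the log2 change was −0.30 ± 0.16 (SE) for Myl9, −0.79 ± 0.24 (SE) for Fhl1, 0.18 ± 0.11 (SE) for Ldb3 and 0.05 ± 0.18 (SE) for Dmd, and none passed the test. The TEAD element CATTCC, searched on both strands, was in 9 of the 37 windows, those of Acta2, Smtn and Mylk among them, and in 14.66% of all windows. The letters TATAAA, searched on both strands, were in 6 of the 37 and in 13.62% of all windows.

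The thin filament genes were led by Actg2, which encodes the enteric smooth muscle actin. Its signal was 4137, 3962 and 3429 on the control arrays, 4081, 5357, 4465 and 3787 at 3 h, and 2180, 2443, 2263 and 3661 at 12 h. All 12 h arrays were below all 3 h arrays, while 12 h replicate 4 lay within the controls. Actg2 fell between 3 h and 12 h by 0.76 ± 0.17 on the log2 scale (SE; limma adjusted p = 0.0247), while the comparison with control gave −0.57 ± 0.18 (SE; limma adjusted p = 0.141). The vascular and enteric actin gene Acta2 read 6069, 5626 and 5253 in control, 5263, 6890, 6020 and 5148 at 3 h, and 3922, 3838, 4233 and 5713 at 12 h. The 12 h arrays overlapped both other groups through replicate 4, and the log2 change against 3 h was −0.41 ± 0.14 (SE; limma adjusted p = 0.141). A dimmer Acta2 probe set, with a mean signal of 101.5, had a log2 change of −0.77 at 12 h against control and −0.68 against 3 h when probe sets were tested separately (limma adjusted p = 0.0261 and 0.0151). The tropomyosins Tpm1 and Tpm2, which lie along the actin filament, had mean signals of 3485 ± 252 and 4481 ± 294 in control (SD, n = 3) and 2462 ± 629 and 3695 ± 912 at 12 h (SD, n = 4). Neither passed the test, with log2 changes against 3 h of −0.55 ± 0.15 and −0.41 ± 0.16 (SE). In all 1 of the 4 genes of this group fell between 3 h and 12 h and none was called against control, where 3 had an unadjusted limma p under 0.05 at 12 h.

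None of the 5 genes of the myosin motor and its switch passed the test in any comparison, with 1, 2 and 3 at an unadjusted limma p under 0.05 at 3 h, at 12 h against control and at 12 h against 3 h. Myh11, the smooth muscle myosin heavy chain, read 2849, 2668 and 1988 in control, 2424, 3162, 2642 and 2322 at 3 h, and 1417, 1617, 1936 and 2296 at 12 h. The 12 h arrays were below all 3 h arrays but overlapped the controls, with a log2 change against 3 h of −0.55 ± 0.17 (SE; limma adjusted p = 0.0963). Mylk, the kinase that starts contraction by phosphorylating the light chain, read 2452, 2778 and 2266 in control, 2700, 3392, 2916 and 2511 at 3 h, and 1626, 1962, 1842 and 2590 at 12 h. Only 12 h replicate 4 reached the range of the other groups. The log2 change of Mylk against 3 h was −0.53 ± 0.15 (SE; limma adjusted p = 0.0665). The regulatory light chain Myl9 had a mean of 3493 ± 132 in control (SD, n = 3), 3882 ± 580 at 3 h and 2879 ± 596 at 12 h (SD, n = 4). Ppp1r12b, a myosin-targeting subunit of the phosphatase, read 421.5, 393 and 330.2 in control and 243.5, 306.4, 274.8 and 234.9 at 3 h, so that no 3 h array overlapped a control. At 12 h it read 222.6, 228.2, 211.7 and 411.7, and its log2 changes against control were −0.50 ± 0.20 at 3 h and −0.53 ± 0.20 at 12 h (SE; limma adjusted p = 0.247 and 0.217). When probe sets were tested separately, the dimmest of Ppp1r12b had a log2 change of −0.87 at 12 h against control (limma adjusted p = 0.0498). Its mean signal of 12.3 is under the offset. Another dim probe set went the other way, at 0.18 (limma adjusted p = 0.704). The phosphatase inhibitor gene Ppp1r14a read 319 to 459.8 in control, 229.9 to 383.6 at 3 h and 210.9 to 413.8 at 12 h.

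Of the 7 proteins that bind actin and tune its use, none passed the test, with 1, 3 and 4 at an unadjusted limma p under 0.05. Smtn, which encodes smoothelin, a marker of contractile muscle, read 604.1, 604.3 and 557.5 in control, 496.6, 670.8, 532.6 and 491.8 at 3 h, and 280.7, 289.8, 262.5 and 513.6 at 12 h. Every 12 h array was below every control, and the log2 change was −0.83 ± 0.20 against control and −0.72 ± 0.18 against 3 h (SE; limma adjusted p = 0.0603 and 0.0508). Calponin 1 (Cnn1), an inhibitor of the myosin ATPase, read 2896, 2722 and 2411 in control, 2611, 3736, 2860 and 2358 at 3 h, and 1492, 1673, 1362 and 2529 at 12 h. Its log2 change against 3 h was −0.73 ± 0.19 (SE; limma adjusted p = 0.0543), with only replicate 4 of the 12 h arrays inside the range of the others. Transgelin (Tagln) moved less, at 4868, 4081 and 4002 in control, 4328, 4917, 4342 and 3347 at 3 h, and 2950, 2978, 3879 and 4372 at 12 h, with a log2 change of −0.30 ± 0.17 against control (SE). Caldesmon (Cald1) stood apart, with 2126 ± 248 in control (SD, n = 3) and 2136 ± 113 at 12 h (SD, n = 4) and a log2 change of 0.01 ± 0.13 (SE). The leiomodin gene Lmod1, whose product seeds actin filaments, read 126.6, 126.2 and 114.5 in control and 73.7, 81.9, 64.2 and 61.2 at 3 h, with no overlap. At 12 h it read 64.9, 88.8, 65.9 and 137.3, and its log2 change at 3 h was −0.69 ± 0.19 (SE; limma adjusted p = 0.09). Without 12 h replicate 4, which enters the shared spread, Lmod1 was called at 3 h, where 1.17% of all genes were called lower (limma adjusted p = 0.0169). Synpo2, a dense body protein gene, had 336.9 ± 203 at 12 h (SD, n = 4), with 185.1 on replicate 1 and 633.6 on replicate 4. A dimmer Synpo2 probe set, tested separately, had log2 changes of −1.55 at 12 h against control and −1.34 against 3 h (limma adjusted p = 0.103 and 0.0846). The small heat shock protein gene Hspb6 was below all 3 h arrays on all 12 h arrays, at 148.9 to 212.7 against 217.9 to 331.9 (limma adjusted p = 0.0993).

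**Figure D2:**
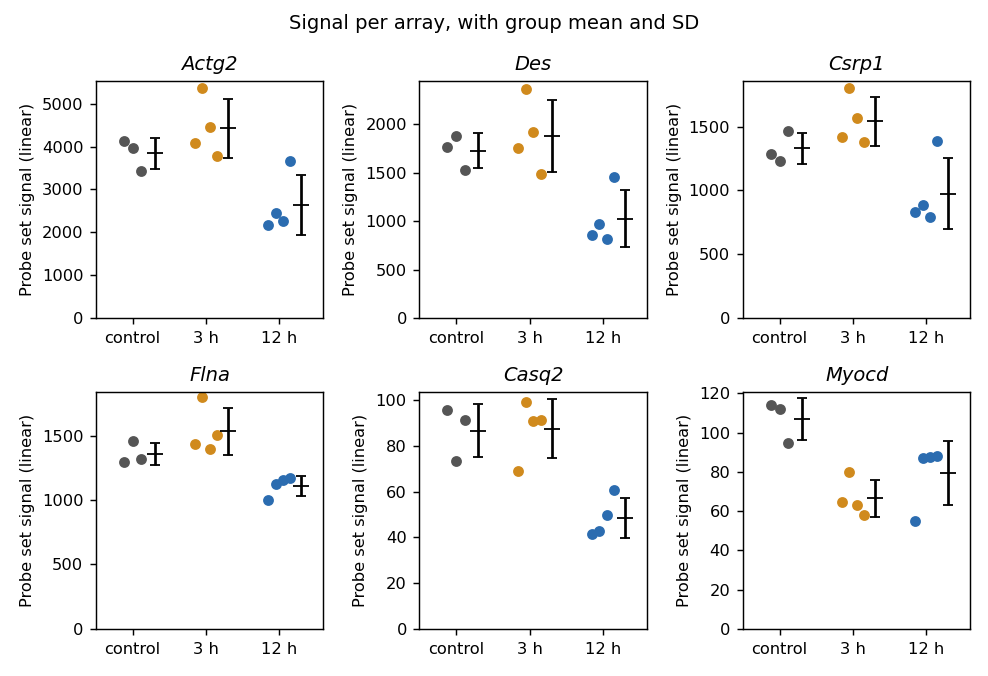
Probe set signal (linear scale) on each array for the 5 genes that fell between 3 h and 12 h and for Myocd, with points for arrays in replicate order and a bar for the group mean and SD (n = 3, 4 and 4). The 12 h arrays of Casq2, Flna and Des lie below all others, and 12 h replicate 4 is the highest of its group for every gene shown.

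Genes of the intermediate filament net and of its attachment to the membrane held 2 of the 5 falls. Desmin (Des), the muscle intermediate filament protein, read 1765, 1882 and 1530 in control, 1751, 2363, 1917 and 1484 at 3 h, and 860.2, 969, 815.3 and 1460 at 12 h. All 12 h arrays were below all arrays of both other groups. Des fell between 3 h and 12 h by 0.88 ± 0.19 on the log2 scale (SE; limma adjusted p = 0.0218), and its log2 change against control was −0.77 ± 0.20 (SE; limma adjusted p = 0.0805). Filamin A (Flna), an actin crosslinker found in many cell types, read 1296, 1459 and 1317 in control, 1434, 1800, 1400 and 1505 at 3 h, and 998.3, 1122, 1158 and 1169 at 12 h. It fell between 3 h and 12 h by 0.46 ± 0.10 on the log2 scale (SE; limma adjusted p = 0.0292), with all 12 h arrays below all others. Synemin (Synm) joins desmin filaments to the membrane. Among the probe sets that stood for the members it had the largest fitted log2 changes in both comparisons with the 12 h arrays. It read 830.4, 1106 and 757.6 in control, 789.2, 1046, 779.9 and 821.3 at 3 h, and 281.7, 407.3, 296.8 and 819.5 at 12 h. The log2 change of Synm was −1.08 ± 0.30 against control and −1.03 ± 0.27 against 3 h (SE; limma adjusted p = 0.096 and 0.0601). The integrin subunit gene Itga8 read 37.4 to 64.5 at 12 h, under all controls (66.9 to 89.8), and differed by −0.61 ± 0.16 on the log2 scale (SE; limma adjusted p = 0.0864). The dense plaque protein gene Pgm5 had 460.7 ± 64.6 in control (SD, n = 3) and 334.8 ± 89.7 at 12 h (SD, n = 4). For dystrophin (Dmd) the fitted log2 change at 12 h against control was 0.05 for one probe set and −0.47 for another of similar brightness; neither passed the test, and their difference was not tested.

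Among the genes of LIM and PDZ-LIM proteins, which sit at dense bodies and Z discs, Csrp1 fell. Its signal was 1288, 1234 and 1469 in control, 1419, 1802, 1570 and 1378 at 3 h, and 833.4, 885.6, 789.7 and 1390 at 12 h. Replicates 1 to 3 at 12 h were below every other array and replicate 4 was not. The fall of Csrp1 between 3 h and 12 h was −0.68 ± 0.17 (SE; limma adjusted p = 0.0398). Fhl1 read 3666, 3489 and 3018 in control, 2555, 3083, 2747 and 2769 at 3 h, and 1326, 1770, 1826 and 3388 at 12 h, with a log2 change of −0.79 ± 0.24 against control (SE; limma adjusted p = 0.126). Pdlim3 had log2 changes against control of −0.07 ± 0.24 at 3 h and −0.68 ± 0.24 at 12 h (SE), and Pdlim7 of −0.15 ± 0.17 and −0.59 ± 0.17 (SE). Ldb3, a Z disc protein gene best known from striated muscle, went the other way. It read 83.1, 89.7 and 104.9 in control, 75, 86.3, 94.6 and 72.7 at 3 h, and 115.8, 99.5, 99.9 and 111.6 at 12 h. Its 12 h arrays were above all 3 h arrays, as those of 6.3% of all genes were, and the log2 change was 0.33 ± 0.10 (SE; limma adjusted p = 0.113). The dimmest Ldb3 probe set, with a mean signal of 8.89, had a log2 change of 0.90 at 12 h against control when probe sets were tested separately (limma adjusted p = 0.0468). That mean signal is under the offset, so no direction is read from it. Another Ldb3 probe set, with a mean signal of 39.5, had a log2 change of 0.29 there (limma adjusted p = 0.522).

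Among the calcium store genes Casq2 encodes calsequestrin 2, the protein that holds calcium inside the sarcoplasmic reticulum. Its signal was 95.4, 73.3 and 91.1 in control, 68.8, 99.2, 90.6 and 91.4 at 3 h, and 41.5, 42.7, 49.6 and 60.5 at 12 h. All 12 h arrays, replicate 4 included, were below all others. Casq2 fell at 12 h by 0.67 ± 0.14 against control and by 0.68 ± 0.13 against 3 h on the log2 scale (SE; limma adjusted p = 0.0369 and 0.0127). Junctophilin 2 (Jph2), which ties the store to the surface membrane, read 162.3, 163.1 and 134.4 in control, 122.3, 135.7, 139.5 and 109 at 3 h, and 77.5, 76.4, 91 and 136.1 at 12 h. Its log2 change against control was −0.63 ± 0.17 at 12 h (SE; limma adjusted p = 0.085). Phospholamban (Pln), the brake on the calcium pump, read 133.1, 124.4 and 112.2 in control, 96.3, 125.1, 108 and 97 at 3 h, and 74.1, 89.4, 72.9 and 137.6 at 12 h, with overlap between all groups. For the muscarinic receptor gene Chrm3, which mediates contraction on acetylcholine, no array read above 8.2, which is below the offset of 16, so no level is given a direction.

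The coactivator gene Myocd had a larger fitted change against control at 3 h than at 12 h, and was not called between those times. It read 114.2, 112.1 and 94.6 in control, 64.9, 79.8, 63.1 and 58.3 at 3 h, and 55, 87.2, 87.6 and 88.1 at 12 h. Every array of either imatinib group was below every control. The log2 change was −0.58 ± 0.15 at 3 h and −0.38 ± 0.15 at 12 h (SE; limma adjusted p = 0.0654 and 0.237), so the test was passed at neither time. Myocd was called at 3 h against control in 1 of 11 fits without 1 array (limma adjusted p = 0.0206). It was also called there in 5 of 15 other alternatives. The share of all genes called in those fits is not given here. At 3 h the members lower than control without overlap were Myocd, Lmod1 and Ppp1r12b, 3 of 32 beside 8.56% of all genes. At 12 h there were 7 of 32 below control without overlap beside 6.99% of all genes, and 6 of 32 below 3 h beside 5.26%.

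**Figure D3:**
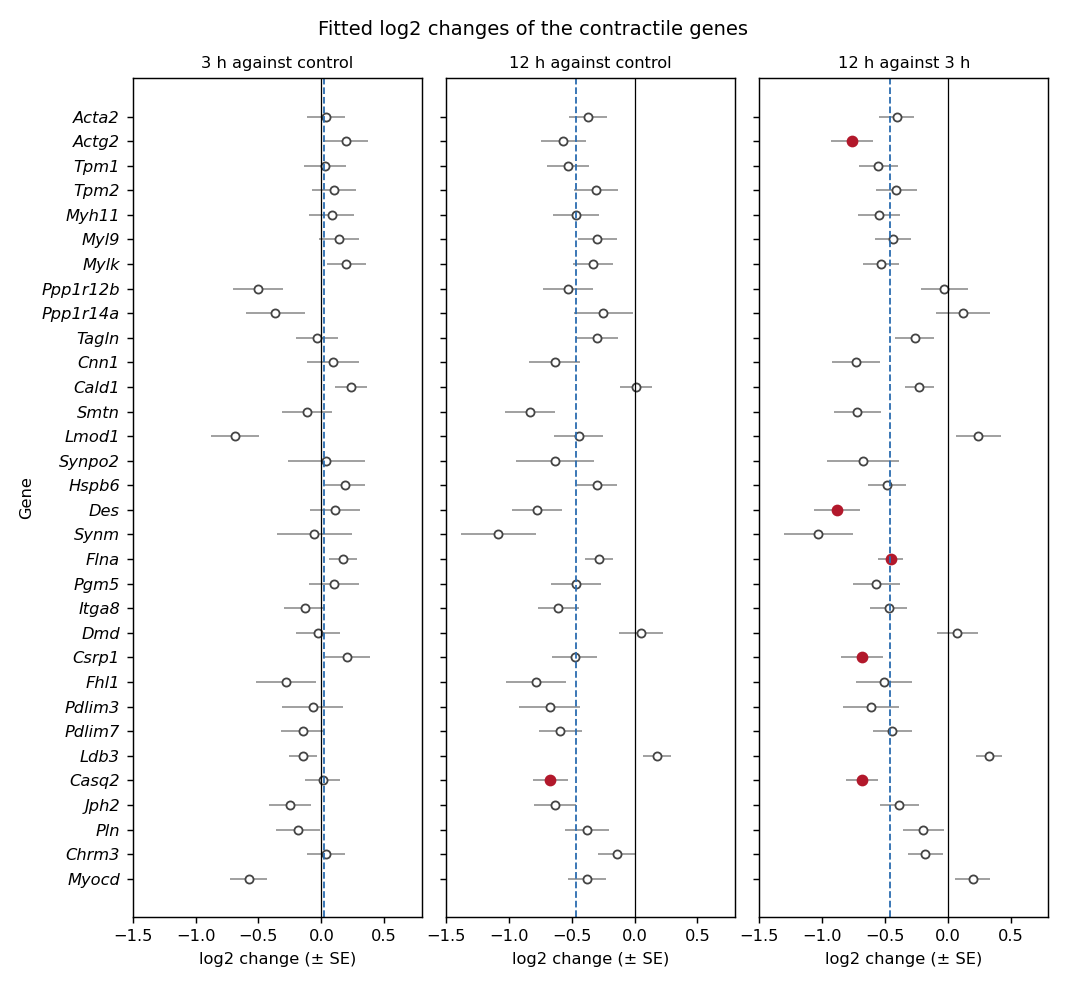
Fitted log2 change (± SE) of each contractile gene in the 3 comparisons, with filled points for genes at a limma adjusted p under 0.05 and a dashed line at the median of the 32 genes (0.02, −0.47 and −0.46). Points lie on both sides of 0 at 3 h and mostly below 0 in both comparisons with the 12 h arrays.

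The 5 falls between 3 h and 12 h were not equally firm. The call of Casq2 held when any 1 of the 11 arrays was left out (limma adjusted p up to 0.0445). Those of Actg2 and Des were lost without any 1 of 3 h replicates 1 to 3 or 12 h replicates 1 to 3 (limma adjusted p up to 0.0732 and 0.0636). That of Flna was lost without 3 h replicate 1, 2 or 4 or 12 h replicate 1, 2 or 3 (up to 0.0775), and that of Csrp1 held only without 12 h replicate 4 (up to 0.111 otherwise). The fall of Casq2 against control held only without 3 h replicate 1 or 2 or 12 h replicate 4, with an adjusted p of up to 0.145 without another array.

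Other genes of contraction came from lists of 112 symbols, of which 99 were measured. At 3 h 4 rose and 6 fell, at 12 h 1 rose and none fell against control, and between 3 h and 12 h 4 rose and 6 fell. Their median log2 changes were −0.01, −0.09 and −0.10. Of all genes tested 1.43% rose and 1.1% fell at 3 h. The shares were 0.786% and 0.846% at 12 h against control, and 1.99% and 2.08% between 3 h and 12 h. Without 12 h replicate 4 the counts of the 99 genes were 5 up and 6 down at 3 h, 2 up and 7 down at 12 h against control, and 5 up and 9 down between 3 h and 12 h, with medians of −0.01, −0.10 and −0.11. Called lower in that fit were 1.17%, 1.38% and 2.24% of all genes. Among 17 genes of SRF and mesenchymal transcription factors, Foxf1, a gut mesenchyme regulator, rose at 3 h (210.4 ± 26.2 in control, SD, n = 3, against 364.2 ± 55.5 at 3 h, SD, n = 4; limma adjusted p = 0.0111). Its relative Foxf2 fell at 3 h (log2 change −0.53 ± 0.10 SE) and so did Mef2c (−0.58 ± 0.12 SE), while Foxf1 and Foxf2 changed back between 3 h and 12 h (−0.60 ± 0.12 and 0.57 ± 0.09 SE). Among 10 genes of calcium entry and release Sln was called lower at 3 h, though its signal was under the offset on every array. None of 13 receptors and G proteins through which transmitters and hormones act on smooth muscle passed the test, with 1, 3 and 5 at an unadjusted limma p under 0.05.

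Of 11 genes of cyclic GMP signalling and relaxation 1 rose and 1 fell at 3 h, none was called at 12 h against control (4 at an unadjusted limma p under 0.05), and 2 rose and 1 fell between 3 h and 12 h. Gucy1a1 and Gucy1b1 encode the subunits of the nitric oxide receptor, soluble guanylate cyclase. Gucy1a1 fell from 134.9 ± 6.91 in control (SD, n = 3) to 66.95 ± 11.9 at 3 h and was 133.1 ± 26.3 at 12 h (SD, n = 4). Both subunits rose between 3 h and 12 h (log2 changes 0.84 ± 0.14 and 0.74 ± 0.11 SE), and Gucy1b1 had a log2 change of −0.48 ± 0.12 at 3 h (SE; limma adjusted p = 0.0633). Kcnj8, the pore of the ATP-sensitive potassium channel of smooth muscle and pericytes, rose from 104.3 ± 17.9 in control (SD, n = 3) to 457.8 ± 97.9 at 3 h (SD, n = 4), by 1.97 ± 0.37 on the log2 scale (SE; limma adjusted p = 0.0179). At 12 h it read 281.3, 333.5, 384.9 and 88.3, so that replicate 4 lay in the control range, and without that array Kcnj8 was also called at 12 h against control (log2 change 1.54 ± 0.19 SE; limma adjusted p = 0.00217). The phosphodiesterase gene Pde3a fell between 3 h and 12 h (−0.61 ± 0.11 SE). Among 34 other contractile and dense plaque genes, Filip1l fell at 3 h (−0.85 ± 0.13 SE) and rose between 3 h and 12 h (1.09 ± 0.12 SE; limma adjusted p = 0.000421). Hspb8 and Npnt rose at 3 h (0.70 ± 0.13 and 0.60 ± 0.11 SE) and fell between 3 h and 12 h, and the integrin gene Itgb1 fell there too (−0.44 ± 0.09 SE). The muscle chaperone gene Hspb7 was the 1 rise at 12 h against control. It read 81.6, 49.5 and 72.8 in control and 208.8, 215.2, 202.8 and 105.7 at 12 h, with 12 h replicate 4 nearest to the controls (log2 change 1.22 ± 0.25 SE; limma adjusted p = 0.037). Without that array the change was 1.44 ± 0.21 (SE; limma adjusted p = 0.00626).

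Markers of other cells were set beside the contractile genes. Of 16 fibroblast and matrix genes 9 fell at 12 h against control and 9 against 3 h, with median log2 changes of −0.60 and −0.52, and without 12 h replicate 4 the counts were 6 and 7. Of all genes tested 0.846% and 2.08% were called lower in these comparisons, and 1.38% and 2.24% without that array. The mean log2 level of the matrix genes was 8.90 to 9.25 in control, 8.75 to 8.99 at 3 h, and 8.45, 8.42, 8.41 and 8.30 on 12 h replicates 1 to 4, so that all 4 arrays were below every other. On 12 h replicate 4 the mean of the matrix genes was thus the lowest of all arrays while the mean of the contractile genes was at the control level. Single matrix genes differed. Lum, Dcn and Thy1 were highest of the 12 h arrays on replicate 4 (745.6, 2389 and 106.2), and the other matrix genes were not. The 18 epithelial genes had mean log2 levels of 11.54 to 11.76 in control, 11.51 to 11.68 at 3 h and 11.38 to 11.70 at 12 h, with 1 rise at 3 h and no call at 12 h, where 3 had an unadjusted limma p under 0.05 against control. Skeletal and cardiac muscle genes, 22 in number, had a summed signal of 395.8 to 434.1 in control, 445.4 to 484.6 at 3 h and 365 to 437.3 at 12 h. The defining skeletal myosin genes Myh1, Myh2 and Myh4 had mean signals of 2.43, 2.43 and 1.17 in control, below the offset. The brightest genes of the list were above it, with control means of 113.9 for Ckm, 78.27 for Acta1, 47.67 for Tnnt2 and 39.2 for Actc1. None of these 22 genes was called, with 1, 2 and 1 at an unadjusted limma p under 0.05 in the 3 comparisons. None of 14 enteric neuron and glia genes was called (1, 1 and 2 unadjusted), nor any of 5 genes of the interstitial cells of Cajal (0, 1 and 1 unadjusted). Of 10 endothelial and pericyte genes 1 rose at 3 h, namely Kcnj8, and none was called at 12 h (1 unadjusted against control, 2 against 3 h).

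Genes of mitosis, a measure of dividing cells, were also lower. Of 15 measured 2 fell at 3 h and 5 at 12 h against control, with median log2 changes of −0.55 and −0.80, while none was called at 12 h against 3 h (2 at an unadjusted limma p under 0.05; median −0.21). The 5 that fell at 12 h were Mki67, Cdk1, Bub1b, Cenpf and Hmmr. Of all genes tested 1.1% were called lower than control at 3 h and 0.846% at 12 h. The mean log2 level of the list was 7.21, 7.42 and 7.32 in control, 6.94, 6.62, 6.40 and 7.10 at 3 h, and 7.0, 6.54, 6.38 and 6.11 at 12 h. Every array of either imatinib group was below every control, and 12 h replicate 4, near control for the contractile genes, was the lowest of all for the mitotic genes. Their part in the result was not tested.

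**Figure D4:**
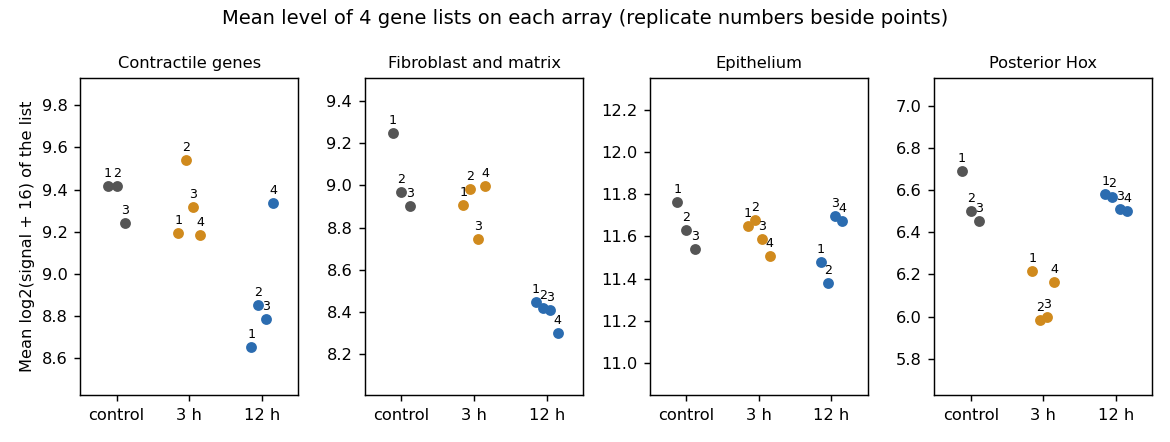
Mean log2(signal + 16) over the 32 contractile genes, 16 fibroblast and matrix genes, 18 epithelial genes and 10 posterior Hox genes on each array, with replicate numbers beside the points and the same height of axis in each panel. At 12 h replicate 4 is apart from replicates 1 to 3 for the contractile genes and not for the matrix genes.

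The 10 posterior Hox genes, which mark the distal part of the colon, had mean log2 levels of 5.98 to 6.21 at 3 h, below all controls (6.45 to 6.69) and all 12 h arrays (6.5 to 6.58), and 4 of them fell at 3 h and 4 rose between 3 h and 12 h. Of all genes tested 1.1% were called lower at 3 h against control and 1.99% higher between 3 h and 12 h. With the Hox level as a covariate no contractile gene was called at 12 h against 3 h and the median log2 change there was −0.077, with 1 of all genes still called, while against control at 12 h it was −0.47 with 1 call. The 10 fat genes had a mean log2 level of 7.0 to 7.24 in control, 7.57 to 7.97 at 3 h and 7.15 to 7.94 at 12 h, with 2 rises at 3 h, 1 at 12 h against control and 1 fall between 3 h and 12 h. Beside these, 1.43% and 0.786% of all genes were called higher than control at 3 h and 12 h, and 2.08% lower between 3 h and 12 h. With the fat level as a covariate the median of the contractile genes was −0.42 at 3 h and −0.72 at 12 h against control, with 0 and 6 calls, and 1 call at 12 h against 3 h. The Hox level did not overlap between 3 h and the other groups and the fat level did not between control and 3 h, so in those comparisons the covariate and the group cannot be told apart. Pancreatic acinar genes, 11 in number, had mean log2 levels of 6.38 to 13.19 in control, 5.27 to 11.18 at 3 h and 7.21 to 12.82 at 12 h, with no call in any comparison (0, 0 and 1 at an unadjusted limma p under 0.05). They were high on control replicate 1 (13.19), on 3 h replicate 3 (11.18) and on 12 h replicates 1, 3 and 4 (12.82, 12.4 and 11.31). With them as a covariate the medians were 0.04, −0.47 and −0.49, and of the falls between 3 h and 12 h 1 was called. The share of all genes called with the fat or pancreatic covariate is not given here.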

How the data were processed

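Total RNA of 11 colon samples was hybridised to an Affymetrix mouse array, 1 array per sample. The deposited values are linear intensities, 1 per probe set; their software is not given in the sources used here. With 2% trimmed from each end, the deposited intensities of every array averaged 100.0, so all arrays share a scale. Of 45101 probe sets 34945 had 1 gene symbol, updated by Entrez number to RefSeq symbols (99.4% found), 932 several and 9160 none; 64 were controls. The probe set with the highest mean log2 level represented each of 18193 genes. Signals were transformed as log2(signal + 16) and fitted with limma 3.58.1 in R 4.3.3 on all 11 arrays and 3 groups (8 residual and 3.99 prior degrees of freedom), 2-sided, with Benjamini-Hochberg adjustment over all genes. The procedure was tested on simulated data.

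Samples were grouped by their titles. The members and gene lists were chosen with earlier results of these data known. Values by array or group were given for 13 fixed members (12 measured), for every member called and, as fewer than 8 were called, for the 4 with the smallest p in each comparison; other members were added for their role. Of the pathway lists up to 4 called genes each were named, by smallest p, and Hspb7, the single rise at 12 h. Lists of other cells were given by counts of calls, most with their levels. The results of 1 pathway list are not reported here beyond the totals. Alternatives, 16 beside leaving out each of 11 arrays, covered offset, scaling, filter, probe sets, weights, prior, arrays fitted, replicate block, covariates and threshold. Promoter windows were matched by symbol. Figures used matplotlib 3.10.9 in Python 3.11.15.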

Additional observations from a re-analysis of the deposited data

Results flagged for a closer look

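Among 64 sets of 4 arrays examined (32 genes at 3 h and at 12 h), 5 had an array far from the rest by Dixon's criterion, where chance gives about 1 in 20. On 12 h replicate 4 the log2 level was the highest of its group for Ppp1r12b (8.74, next 7.93), Smtn (9.05, next 8.26), Itga8 (6.33, next 5.78) and Pdlim3 (9.64, next 8.58). For Myocd 12 h replicate 1 was the lowest (6.15, next 6.69).

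For 5 genes the change from control differed between 3 h and 12 h, as tested by the comparison of 12 h with 3 h (limma adjusted p under 0.05). The difference on the log2 scale was −0.76 for Actg2, −0.88 for Des, −0.46 for Flna, −0.68 for Csrp1 and −0.68 for Casq2.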

How the results depend on the processing

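The number of arrays limits every value, and members near the threshold moved across it often. At 3 h against control 2 members were called at an adjusted p under 0.1, 1 with an offset of 64, 2 without genes under a mean signal of 32, 1 with array weights, 1 with a trended robust prior and 2 in a fit of only the 2 groups compared, beside 0. At 12 h against control these settings gave 6, 1, 6, 0, 4 and 0 members beside 1, and at 12 h against 3 h 12, 8, 10, 8, 10 and 3 beside 5. An offset of 1 gave 0 and 1 in the last 2 comparisons. At 12 h against control the mean of all probe sets gave 2 and the epithelial covariate 0. Testing every probe set separately gave 0 there, counting only the probe set that stood for each gene. In that fit dimmer probe sets of Acta2, Ldb3 and Ppp1r12b passed, those of Ldb3 and Ppp1r12b with a mean signal under the main offset. Quantile normalization gave 9 at 12 h against 3 h. The fat covariate gave 6 and 1 in the comparisons with the 12 h arrays, with medians of −0.42 (3 h) and −0.72 (12 h) against control. The posterior Hox covariate gave 0 calls at 12 h against 3 h, with a median of −0.077 there and −0.36 at 3 h against control, and the pancreatic covariate gave 1 call at 12 h against 3 h. Leaving out 1 array gave 0 to 1, 0 to 17 and 1 to 21 members in the 3 comparisons, with medians of −0.05 to 0.06, −0.63 to −0.35 and −0.57 to −0.37. The cause of these shifts was not tested. The share of all genes called can also depend on the setting. It is not given beside these counts, so they are not read as particular to the members. No called member changed sign under any alternative run.

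With the replicate number as a block the counts were 0, 0 and 3 members (replicate block), with medians of −0.03, −0.51 and −0.46. The share of all genes called with the block is not given here. No label says whether the numbers pair the samples. Of 10 pairs of arrays with the same number 3 correlated above 0.1 in their deviations from the group means (−0.21 to 0.31). Among arrays of the other groups, 5 of 11 arrays correlated best with one of their own number. These values cannot decide whether the samples were paired.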

Other observations

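Ano1, which encodes the calcium-activated chloride channel of the interstitial cells of Cajal, the pacemakers of gut muscle, was singled out after its values were seen. It read 2030, 1793 and 1393 in control, 1425, 1354, 967.6 and 1406 at 3 h, and 732.8, 307.4, 732.5 and 1069 at 12 h. All 12 h arrays were below all controls, and the log2 change was −1.38 ± 0.32 (SE; limma adjusted p = 0.0546), which missed the threshold. Kit, the receptor that marks the same cells, had mean signals of 192.7, 192.7 and 160.6 in the 3 groups. The brain-type creatine kinase gene Ckb, also singled out, fell between 3 h and 12 h (−0.66 ± 0.16 SE; limma adjusted p = 0.0375), with 441.2, 527.4 and 522.1 on 12 h replicates 1 to 3 and 762.1 on replicate 4.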
